A study of Mus musculus with 6 samples.

Results

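A set of 10 genes of astrocytes and Bergmann glia was followed in bulk RNA sequencing of the mouse cerebellum: Slc1a2, Slc1a3, Gfap, Aqp4, Aldoc, Gdf10, Hopx, Sox9, S100b and Aldh1l1. They were listed by name as markers of these cells, and all 10 were found among the 31053 genes of the count table by Ensembl identifier. There were 2 WT libraries (replicates 1 and 2) and 3 KIKO libraries (replicates 1, 2 and 3), while the sample labelled as the third WT replicate is not analysed here. KIKO (knock-in knock-out) mice carry a knock-in allele over a knock-out allele of the same gene in every cell of the body, and their WT controls were C57BL/6 littermates. The labels name the cerebellum and the genotype. They give no age, sex, treatment or sorting, and nothing in them states that each library is 1 animal. The methods of the study describe magnetically sorted CD45+/CD11b+ cells of 6-mo-old mice, a gate that astrocytes, which lack both proteins, do not pass, yet transcripts of astrocytes and neurons were found in each library.

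Astrocytes take up the glutamate and potassium that neurons release, control water flow at blood vessels and supply neurons with substrates. Bergmann glia are the radial astrocytes of the cerebellar cortex. Their cell bodies lie beside those of Purkinje neurons, and their fibres ensheathe the synapses on Purkinje dendrites. In response to injury or inflammation astrocytes become reactive, and a rise of Gfap is the change most often used to recognise this state.

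The libraries held between 1013107 and 1351339 counts, and 3 counts, the smallest signal read here, corresponded to between 2.28 and 3.04 normalized CPM (CPM, the count over the TMM-scaled library size, multiplied by 1e+06). This limit and the n = 2 and n = 3 of the groups cover counting error and the spread between these libraries only. Transcripts of several cell types were present in each library: the summed level of 8 microglial markers ranged from 3299 to 9614 normalized CPM, that of 5 neuronal markers from 1627 to 3752, that of 4 oligodendrocyte markers from 4241 to 18520 and that of 4 choroid plexus markers from 7829 to 15460. The genotypes were not checked from the counts. KIKO replicate 2 stood apart from the rest: over the log2 CPM of 10889 genes, which are not independent replicates, its r with any other library was between 0.672 and 0.747, and r among the other 4 was between 0.884 and 0.931.

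The 10 members were present at very different levels. Their summed level was 678 and 1418 normalized CPM in WT replicates 1 and 2, and 870, 1200 and 1023 in KIKO replicates 1, 2 and 3. The lowest and the highest sum were thus both WT. S100b alone made up between 39.2% and 61.2% of the sum. In normalized CPM per kilobase of annotated exon, averaged over the 5 libraries, S100b was highest at 375 (range 230 to 585), followed by Aldoc at 42.3 (24.4 to 54.9), Slc1a3 at 18.3 (10.3 to 25.7), Sox9 at 11.9 (7.85 to 16.6), Gfap at 6.69 (2.34 to 10.6), Hopx at 6.52 (0.669 to 12.5), Slc1a2 at 5.33 (2.73 to 7.10) and Aqp4 at 3.78 (2.11 to 5.69). Gdf10 at 0.710 and Aldh1l1 at 0.542 closed the order. The ranges of neighbouring members overlapped except between S100b and Aldoc and between Aqp4 and Gdf10. Without division by length, 7 of the 10 members changed rank and Slc1a2 moved from the seventh to the fourth place. The methods and the labels name different library kits, and for a kit that reads only transcript ends the order without division would be the fitting one.

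Gfap, the intermediate filament protein of astrocytes (ENSMUSG00000020932, GRCm38 chromosome 11, 102887336 to 102900912, minus strand), was the only member past the thresholds of the study, which ask for an absolute log2 fold change over 0.75 together with a p-value below 0.05 before adjustment. It had 20 and 13 counts in the WT libraries and 38, 58 and 36 counts in KIKO replicates 1, 2 and 3. In normalized CPM these were 19.9 and 9.86 in WT and 30.0, 44.8 and 36.5 in KIKO. Every KIKO value lay above both WT values, and Gfap was the only one of the 8 members tested whose groups did not overlap. The WT mean was 14.9 ± 7.12 normalized CPM (SD, n = 2) and the KIKO mean 37.1 ± 7.44 (SD, n = 3). The fitted difference was 1.33 on the log2 scale (standard error 0.55), a fold of 2.51 with a 95% interval from 1.05 to 5.95. The unadjusted p of edgeR's quasi-likelihood test was 0.0400, and the adjusted p over 10889 genes was 1.

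This 1 call among 8 members is to be read against 1.2% of all genes tested that passed the same thresholds, 0.716% higher and 0.487% lower in KIKO. No gene, and so no member, had an adjusted p under 0.05 (0% of 10889 in edgeR's test, where 131 had an unadjusted p under 0.05, and none by DESeq2 or limma). Without KIKO replicate 2, 8 of these genes had an adjusted p under 0.05 in edgeR's test, and 1 had when the filter was relaxed to the 16822 genes with any count; no member was among them. The groups did not overlap in 16.7% of all genes tested, with KIKO higher in 8.2% and lower in 8.51%. With 2 libraries against 3, an exact permutation test of any 1 gene cannot give a p below 0.1. The call of Gfap was lost when any 1 of 3 libraries was left out: the log2 fold change was 0.89 without WT replicate 2, 1.46 without KIKO replicate 1 and 1.33 without KIKO replicate 3. It was 1.90 without WT replicate 1 and 1.18 without KIKO replicate 2, and Gfap was past the thresholds in both. Some markers of other cell types had groups without overlap too, as did 16.7% of all genes tested. None of the 8 microglial, 5 neuronal and 4 endothelial markers did. Pcp2, a Purkinje neuron marker, was at 34.9 and 40.2 normalized CPM in WT and at 71.8, 58.0 and 50.7 in KIKO, without overlap, and all 4 Purkinje neuron markers had a log2 fold change above 0 (median 0.70, summed level 1.66 times that of WT, sums overlapping). Enpp2 and Folr1 of the choroid plexus and Mog of oligodendrocytes were lower in KIKO without overlap, Enpp2 at 2199 and 2240 against 1542, 1396 and 1246 normalized CPM. None of these markers was past the thresholds, and the part of these cells in the level of Gfap was not tested.

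**Figure D1:**
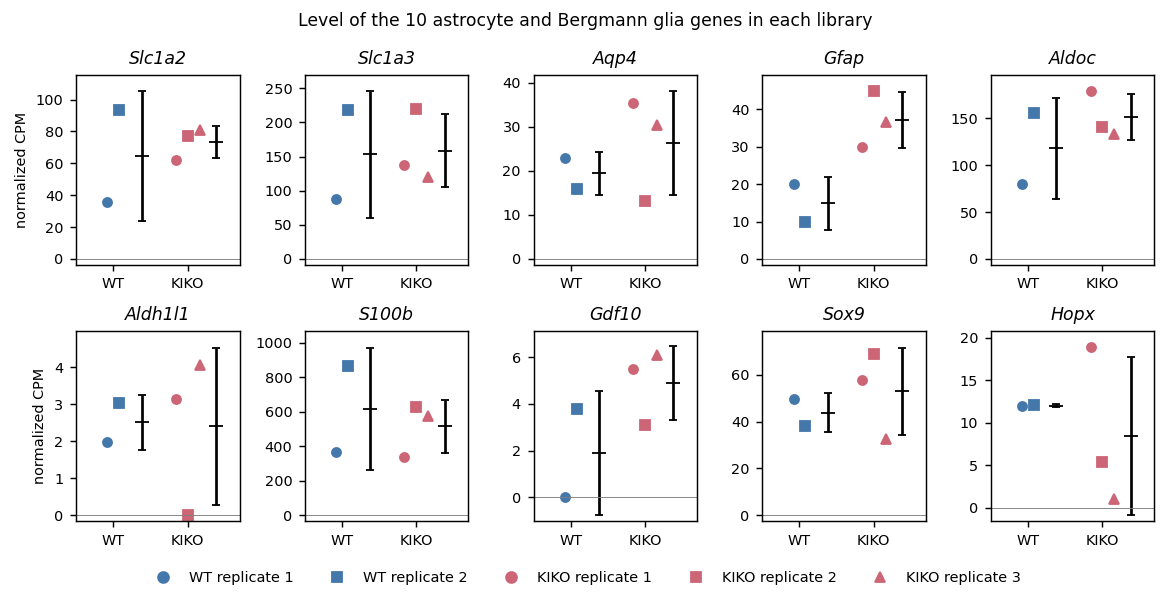
Level of each of the 10 members by library. The y axis is normalized CPM on a linear scale that differs between panels; points are libraries (blue WT, red KIKO; circle, square and triangle for replicates 1, 2 and 3), and the bar beside each group is its mean ± SD (n = 2 WT, n = 3 KIKO). The groups are apart in the panel of Gfap, with WT at 9.86 and 19.9 and KIKO from 30.0 to 44.8; WT replicate 1 is below every other library in the panels of Slc1a2, Slc1a3 and Aldoc.

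Within a library, Gfap was also set against other members, a comparison chosen after the values were seen. The ratio of Gfap to Slc1a3 in normalized CPM was 0.227 in WT replicate 1 and 0.0451 in WT replicate 2, and 0.218, 0.204 and 0.305 in KIKO replicates 1, 2 and 3. WT replicate 1 lay inside the KIKO range. The ratio to the sum of the 8 members other than S100b and Gfap was 0.0687 and 0.0182 in WT and 0.0600, 0.0848 and 0.0893 in KIKO, so that the groups overlapped here as well. The groups also overlapped in the ratios to Aqp4 and to Slc1a2, whereas the ratio to Sox9 was 0.400 and 0.260 in WT and 0.520, 0.652 and 1.13 in KIKO, without overlap.

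The glutamate transporters did not differ between the genotypes beyond the spread between libraries. Slc1a3 (GLAST, the main transporter of Bergmann glia; ENSMUSG00000005360, chromosome 15, 8634124 to 8710764) was at 87.7 and 218 normalized CPM in WT and at 137, 220 and 120 in KIKO replicates 1, 2 and 3. Both libraries numbered 2 were highest, and the groups overlapped entirely. The means were 153 ± 92.5 (SD, n = 2) and 159 ± 53.3 (SD, n = 3), a fold of 1.04 with a 95% interval from 0.479 to 2.24. Slc1a2 (GLT-1, the transporter of most other astrocytes; ENSMUSG00000005089, chromosome 2, 102658659 to 102790784, whose exons share bases with the antisense gene Gm13872) was at 35.9 and 93.3 normalized CPM in WT and at 62.3, 77.3 and 81.2 in KIKO. The lowest and the highest library were again both WT, and the 3 KIKO libraries lay between them. The fold was 1.13 with an interval from 0.536 to 2.40. The ratio of Slc1a3 to Slc1a2 was between 1.48 and 2.84, lowest in KIKO replicate 3.

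S100b, a calcium-binding protein that astrocytes secrete and that oligodendrocytes also make (ENSMUSG00000033208, chromosome 10, 76253853 to 76261159), was the member with the most counts, 370 to 1144 a library. It was at 369 and 868 normalized CPM in WT and at 341, 627 and 577 in KIKO replicates 1, 2 and 3. WT replicate 1 and KIKO replicate 1 were low, the other 3 libraries high, and the groups overlapped. The fold was 0.833 with a 95% interval from 0.384 to 1.80. The 4 summed oligodendrocyte markers, among them Mbp, Mog and Mobp, were at 4921 and 11480 normalized CPM in WT and at 4241, 18520 and 5409 in KIKO replicates 1, 2 and 3: they were low where S100b was low in 2 libraries and high in both libraries numbered 2, whereas KIKO replicate 3 had a high S100b with a low sum. None of the 4 markers was at 0 in any library, and their part in the level of S100b was not tested.

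**Figure D2:**
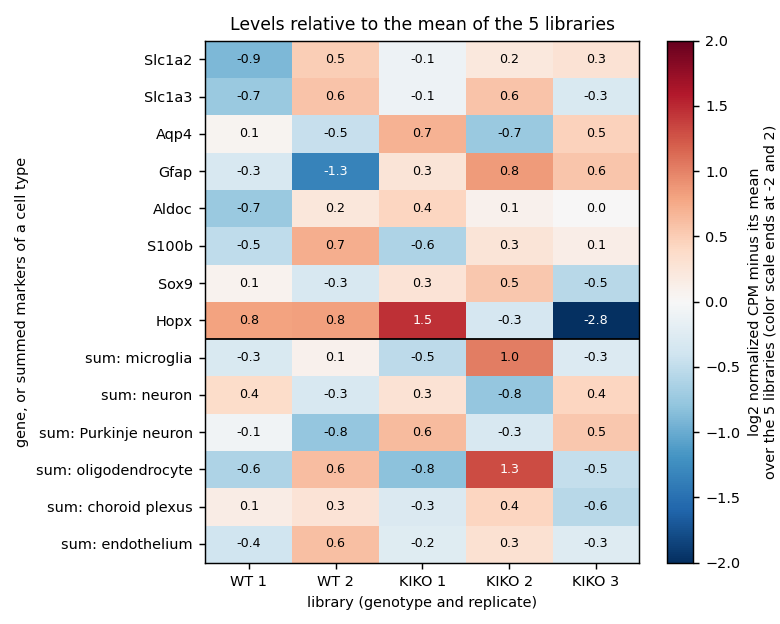
Level of the 8 members tested (above the line) and summed markers of 6 other cell types (below it) in each library. Colour and number give log2 normalized CPM minus the mean over the 5 libraries of that row; the colour scale ends at -2 and 2, which 1 value, Hopx in KIKO replicate 3, exceeds. Slc1a2, Slc1a3, Aldoc and S100b are below their mean in WT replicate 1 and above it in WT replicate 2. The summed oligodendrocyte, endothelial and microglial markers are so as well. Gfap and Aqp4, in contrast, are lower in WT replicate 2 than in WT replicate 1.

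The sequences before the transcription starts of 3 members are shown: Gfap as the member past the thresholds, S100b as the most abundant one, and Slc1a3. Slc1a3 was the only member tested that was over 1.5-fold higher in both libraries numbered 2, by the criterion given below. Each line is 250 bases upstream of a RefSeq transcription start on GRCm38.p6, 5′ to 3′ on the strand of the gene. The Gfap window lies inside the GENCODE span of the gene, in which another transcript starts further upstream. Capitals mark matches to TTCNNNGAA, the palindrome bound by STAT factors, and to ACAAT or its reverse complement ATTGT, the core bound by SOX factors; N is any base, and the matches do not overlap.
Gfap, chr11:102897201-102897450, minus strand: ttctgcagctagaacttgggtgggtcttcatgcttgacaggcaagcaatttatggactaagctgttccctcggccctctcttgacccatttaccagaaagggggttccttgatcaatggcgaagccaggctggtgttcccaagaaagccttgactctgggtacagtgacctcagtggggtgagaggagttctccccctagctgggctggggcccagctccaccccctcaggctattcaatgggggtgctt
S100b, chr10:76253586-76253835, plus strand: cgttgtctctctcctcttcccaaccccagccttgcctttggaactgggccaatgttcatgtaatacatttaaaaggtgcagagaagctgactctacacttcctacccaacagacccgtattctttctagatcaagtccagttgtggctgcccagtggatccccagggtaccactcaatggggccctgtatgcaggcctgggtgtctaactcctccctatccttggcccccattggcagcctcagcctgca
Slc1a3, chr15:8710808-8711057, minus strand: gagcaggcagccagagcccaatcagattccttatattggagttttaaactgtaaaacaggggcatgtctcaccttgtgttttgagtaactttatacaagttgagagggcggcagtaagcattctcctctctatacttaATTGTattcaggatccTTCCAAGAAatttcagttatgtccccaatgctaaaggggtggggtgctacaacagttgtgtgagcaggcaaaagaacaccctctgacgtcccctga
Slc1a3 had a STAT match from base -96 to -88 and a SOX match from -112 to -108 relative to the start, and these letters were not in the windows of Gfap and S100b. A STAT match occurred in 7.02% and a SOX match in 27.7% of 32851 promoter windows of the same length. Among the 10 windows of the 8 members in the RefSeq table, 2 held a STAT match (Slc1a3 and 1 of 2 windows of Aldoc) and 3 a SOX match. A match is a description of letters and not a measured binding site.

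Both metabolic enzymes overlapped between the genotypes. Aldoc (aldolase C, a glycolytic enzyme of astrocytes that also marks stripes of Purkinje neurons; ENSMUSG00000017390, chromosome 11, 78322968 to 78327781) was at 79.7 and 156 normalized CPM in WT and at 179, 141 and 134 in KIKO. Only WT replicate 1 lay outside the others. The means were 118 ± 54.1 (SD, n = 2) and 151 ± 24.2 (SD, n = 3), a fold of 1.28 with an interval from 0.668 to 2.46, and the log2 fold change went from 0.36 to -0.04 without WT replicate 1. The 4 Purkinje neuron markers were at 267 and 165 summed normalized CPM in WT and at 438, 225 and 410 in KIKO, an order of libraries that differs from that of Aldoc. Their part in the level of Aldoc was not tested. Aldh1l1 (a folate enzyme used as a marker of all astrocytes; ENSMUSG00000030088, chromosome 6, 90486427 to 90600203) had 2, 4, 4, 0 and 4 counts in WT replicates 1 and 2 and KIKO replicates 1, 2 and 3. It did not pass the filter on low counts, 604 bases of its exons are shared with Gm45901 and Gm15756, and a difference between the genotypes was not detectable at this depth. In KIKO replicate 2, 0 counts allow a level of up to 2.32 normalized CPM.

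Aqp4, the water channel of astrocyte endfeet (ENSMUSG00000024411, chromosome 18, 15389496 to 15410982), was at 22.9 and 15.9 normalized CPM in WT and at 35.5, 13.1 and 30.4 in KIKO replicates 1, 2 and 3. KIKO replicates 1 and 3 lay above both WT libraries and KIKO replicate 2 below them. The fold was 1.36 with an interval from 0.524 to 3.52. Without KIKO replicate 2 its log2 fold change went from 0.44 to 0.78, and it did not pass the thresholds in that fit either. The summed neuronal markers were lowest in the same 2 libraries, WT replicate 2 and KIKO replicate 2. They were at 3563 and 2219 normalized CPM in WT and 3401, 1627 and 3752 in KIKO. The summed Purkinje neuron markers were lowest in these 2 libraries too, at 165 and 225. This is a likeness in the order of libraries only, and the part of these cells in the level of Aqp4 was not tested.

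The transcription regulators did not separate the genotypes. Sox9, which specifies and maintains astrocytes and is also made by choroid plexus epithelium (ENSMUSG00000000567, chromosome 11, 112782224 to 112787760), was at 49.8 and 37.9 normalized CPM in WT and at 57.6, 68.8 and 32.5 in KIKO, with KIKO replicate 3 lowest and KIKO replicate 2 highest. The fold was 1.21 with an interval from 0.582 to 2.53. The summed choroid plexus markers had the same lowest and highest library. Their sum was at 12740 and 13840 normalized CPM in WT and at 9401, 15460 and 7829 in KIKO. Most of it was Ttr (mean 10070), which had this lowest and highest library, as did Kl. Enpp2 and Folr1 were instead highest in WT replicate 2, and Folr1 was lowest in KIKO replicate 1. The part of choroid plexus cells in the level of Sox9 was not tested. Hopx, an atypical homeodomain protein without DNA contact of its own that is enriched in Bergmann glia (ENSMUSG00000059325, chromosome 5, 77086988 to 77115121), had 12 and 16 counts in WT and 24, 7 and 1 counts in KIKO replicates 1, 2 and 3. Both WT libraries were close to each other at 11.95 and 12.1 normalized CPM, whereas the KIKO libraries spread from 1.02 to 18.9. Its spread within the groups, an SD of 1.19 on the log2 scale, exceeded that of 89.7% of the genes tested, compared with 33.5% to 58.8% for the other 7 members. The fold was 0.715 with an interval from 0.141 to 3.63, and without KIKO replicate 3 the log2 fold change was 0.01. Part of its exons, 412 bases, lies opposite the antisense gene Hopxos, from which reads could not be told apart if the strand was not used in counting.

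Gdf10, a secreted factor of the TGF-beta family and the most specific Bergmann glia marker of the 10 (ENSMUSG00000021943, chromosome 14, 33923587 to 33937983), had 0 and 5 counts in WT and 7, 4 and 6 counts in KIKO. These are 0 and 3.79 against 5.52, 3.09 and 6.09 normalized CPM, at or near the limit of 3 counts in every library. It did not pass the filter on low counts and no fold is given. Of the members that mark Bergmann glia, Slc1a3 thus had at least 88 counts in each library, Hopx between 1 and 24 and Gdf10 at most 7.

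**Figure D3:**
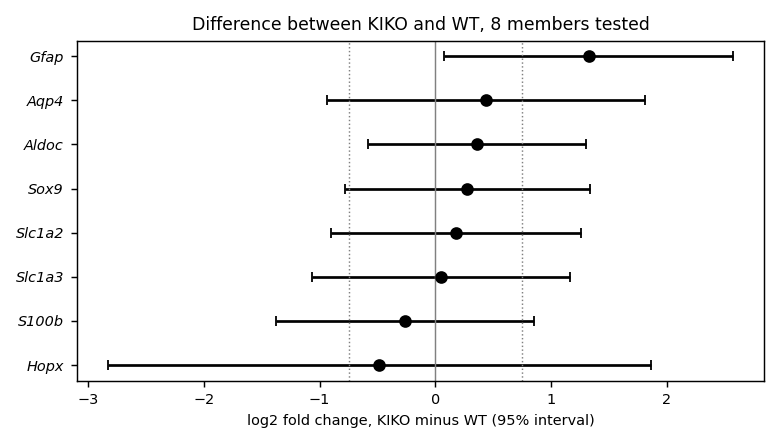
Log2 fold change of the 8 members that passed the filter on low counts, KIKO minus WT, with 95% intervals from edgeR's quasi-likelihood fit (2 WT and 3 KIKO libraries). The solid line is 0 and the dotted lines are -0.75 and 0.75. The interval of Gfap, 0.08 to 2.57, lies above 0, whereas the other 7 contain 0, from the narrowest of Aldoc to the widest of Hopx.

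Over the 8 members tested, 6 log2 fold changes were above 0 and 2 below it, with a median of 0.23 beside 0.02 over all genes tested. The median was 0.67 without WT replicate 2 and -0.19 without WT replicate 1, so that the direction of the group turned on which of the 2 WT libraries was used. The summed level of all 10 members averaged 1048 ± 523 normalized CPM over the 2 WT libraries and 1031 ± 165 over the 3 KIKO libraries (each ± SD), a ratio of 0.983, which was 1.52 without WT replicate 2 and 0.727 without WT replicate 1. In bulk samples, fewer astrocytes and less RNA per astrocyte cannot be told apart.

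**Figure D4:**
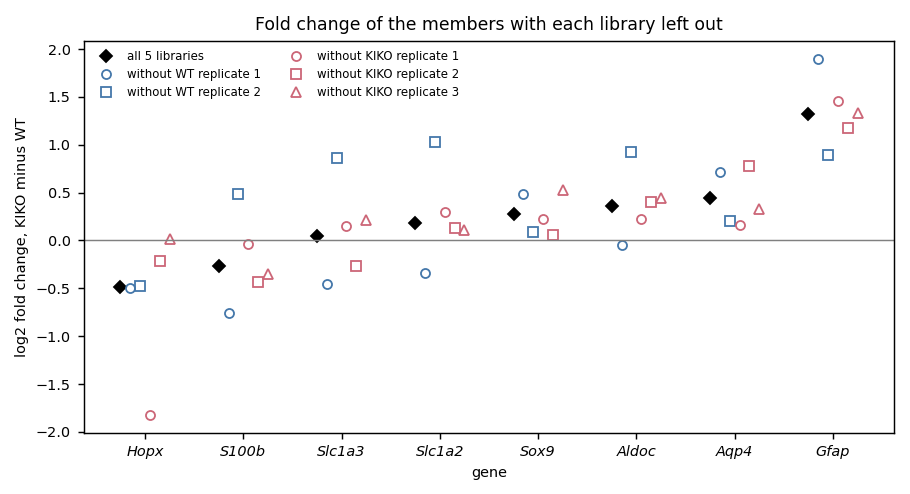
Log2 fold change of each member, KIKO minus WT, with all 5 libraries (black diamonds) and with each library left out in turn (open symbols; blue for a WT and red for a KIKO library, circle, square and triangle for replicates 1, 2 and 3). Slc1a2, Slc1a3, S100b and Aldoc lie on both sides of 0 depending on the WT library left out, Aldoc only just below it. Hopx falls to -1.82 without KIKO replicate 1, and Gfap stays between 0.89 and 1.90.

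The 2 WT libraries differed from each other in 2 directions. From WT replicate 1 to WT replicate 2, Slc1a2 differed by 2.60-fold, Slc1a3 by 2.49-fold, S100b by 2.35-fold and Aldoc by 1.96-fold, all higher in WT replicate 2. Gfap, Aqp4 and Sox9 were lower there, at 0.495, 0.695 and 0.761 of their level in WT replicate 1. KIKO replicate 2 was 1.71 times the mean of the other KIKO libraries in Slc1a3, 1.53 times in Sox9, 1.36 times in S100b and 1.35 times in Gfap, close to it in Slc1a2 and Aldoc (1.08 and 0.904) and lower in Aqp4 (0.399) and Hopx (0.542). By a criterion chosen after the values were seen, over 1.5-fold higher in WT replicate 2 than in WT replicate 1 and in KIKO replicate 2 than in the mean of KIKO replicates 1 and 3, with 1 normalized CPM added to each value, 1 of the 8 members (Slc1a3) and 14 of 71 genes of the wider lists described next (19.7%) were counted, beside 9.86% of all genes tested. By the same 2 ratios, the summed oligodendrocyte markers were at 2.33 and 3.84, the microglial markers at 1.31 and 2.66 and the endothelial markers at 2.01 and 1.47. Choroid plexus markers were at 1.09 and 1.79, neuronal markers at 0.623 and 0.455 and Purkinje neuron markers at 0.617 and 0.531. The part of these cells in the differences was not tested.

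In the same fit, 97 other astrocyte genes in 5 lists were examined, of which 71 passed the filter. Cpe was past the thresholds in the higher direction and Gbp2 in the lower, and both had an adjusted p of 1 in edgeR's test, 2 of 71 genes beside 1.2% of all genes tested. The groups did not overlap in 13 of the 71, 8 higher and 5 lower in KIKO, a share near the 16.7% of all genes tested. The median log2 fold change was 0.06. Without KIKO replicate 2, 8 of the 71 passed the thresholds, among them Gjb6, Slc4a4, Cpe, Gbp2, Ggta1, Ptgs2 and Tm4sf1, beside 6.36% of all genes tested in that fit. Of the members, Gfap alone passed in it.

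Uptake and conversion of transmitters was covered by 8 tested genes of 9, 5 above and 3 below 0, none past the thresholds and none without overlap, with a median log2 fold change of 0.18. Glul, the glutamine synthetase that converts the glutamate taken up and that oligodendrocytes make as well, was at 609 and 1440 normalized CPM in WT and at 662, 1467 and 671 in KIKO. Its 2 high libraries were those numbered 2, at 2.37 times WT replicate 1 and 2.20 times the mean of KIKO replicates 1 and 3, as in Slc1a3. The fold was 0.911 with an interval from 0.381 to 2.18. Glud1, the mitochondrial glutamate dehydrogenase, was at 112 and 141 in WT and 101, 229 and 55.8 normalized CPM in KIKO.

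Ion handling and coupling held 9 tested genes of 9, 7 above and 2 below 0, none past the thresholds, with a median of 0.26. Slc4a4, a sodium bicarbonate cotransporter, was at 257 and 196 in WT and at 394, 138 and 432 normalized CPM in KIKO, high in KIKO replicates 1 and 3 and low in KIKO replicate 2, as Aqp4 was. Gjb6 (connexin 30), named after its values were seen, was the only gene of the list without overlap, 0.98 ± 0.46 (standard error) higher in KIKO on the log2 scale and not past the thresholds.

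Identity and signalling genes had 26 of 31 tested, 17 above and 9 below 0 and a median of 0.15. Cpe, carboxypeptidase E, which processes prohormones in astrocytes and in neurons and endocrine cells (chromosome 8, 64592542 to 64693054), was at 109 and 112 normalized CPM in WT and at 188, 220 and 204 in KIKO. All 3 KIKO libraries were above both WT libraries, which lay close together. The fold was 1.85 with an interval from 1.06 to 3.20 (adjusted p = 1 in edgeR's test), and the call was lost without any 1 of WT replicate 1, WT replicate 2, KIKO replicate 1 and KIKO replicate 3, and with all genes of at least 1 count. Besides Cpe, the KIKO libraries were higher without overlap in Ednrb, Pla2g7, Mt3, Prdx6 and Bcan and lower in Clu and Apoe, genes that the overlap alone singled out (6 higher with Cpe and 2 lower of 26, beside 8.2% higher and 8.51% lower of all genes tested). Apoe, the lipid carrier of astrocytes and microglia, was at 1555 and 1810 normalized CPM in WT and at 1199, 1358 and 1303 in KIKO, a fold of 0.765 with an interval from 0.413 to 1.42. Zbtb20, a transcription repressor, was at 1869 and 1678 in WT and 1796, 1161 and 1671 normalized CPM in KIKO.

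Genes enriched in Bergmann glia, 11 tested of 15, had 5 log2 fold changes above and 6 below 0, a median of -0.09 and none past the thresholds. Sept4, a septin of Bergmann glia processes whose exons overlap those of Gm11492, was at 251 and 247 normalized CPM in WT and at 266, 268 and 324 in KIKO, a fold of 1.15 with an interval from 0.662 to 1.995. Vim, an intermediate filament like Gfap that endothelial cells also make, was at 251 and 234 in WT and at 174, 318 and 115 normalized CPM in KIKO. Its fold was 0.836 with an interval from 0.398 to 1.76, and its groups overlapped where those of Gfap did not; the difference between both genes was not tested. The summed level of the list ranged only from 976 to 1062 normalized CPM over the 5 libraries, but its single genes varied more. Among the 11 tested, the highest library was between 1.31 (Sept4) and 11.95 (A2m) times the lowest. The largest parts of the sum were Sept4 and Vim, so it does not show that each gene was steady.

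No listed marker of reactive astrocytes that passed the filter was past the thresholds in the higher direction, and 1, Gbp2, was past them in the lower. Steap4, which did not pass the filter, was past them when all genes of at least 1 count were tested, with 35 counts in KIKO replicate 2 and 0 in the other 4 libraries. Of the 33 genes listed, many of which microglia and endothelial cells make too, 17 passed the filter, 2 were at 0 counts in every library, and 8 log2 fold changes were above and 9 below 0, with a median of -0.12. Hspb1, a small heat shock protein, was at 498 and 780 normalized CPM in WT and at 536, 954 and 445 in KIKO, a fold of 1.01 with an interval from 0.482 to 2.11. H2-D1, an MHC class I gene with near-identical relatives between which reads may be split, was at 479 and 547 in WT and 383, 771 and 263 normalized CPM in KIKO. Gbp2, an interferon-induced GTPase, had 19 and 18 counts in WT and 4, 2 and 7 counts in KIKO, a fold of 0.241 with an interval from 0.0599 to 0.970 (adjusted p = 1 in edgeR's test). Its call was lost without WT replicate 1, without WT replicate 2 and without KIKO replicate 1. Serpina3n and Lcn2, used to recognise reactive astrocytes and named after their values were seen, had at most 2 and at most 6 counts a library and were not tested.

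**Figure D5:**
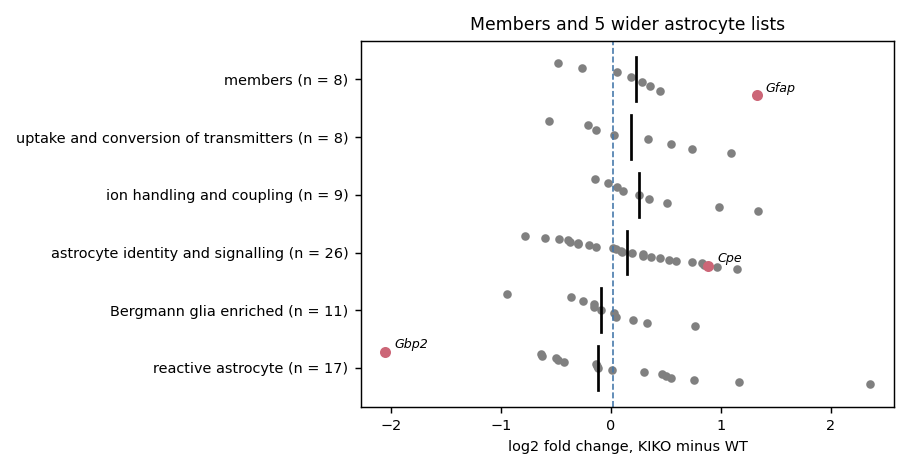
Log2 fold change, KIKO minus WT, of the 8 members tested and of the tested genes of 5 wider astrocyte lists (1 point a gene, spread vertically by rank). Black bars are list medians, the dashed line is the median of all 10889 genes, 0.02, and red named points are past the thresholds. Gfap, Cpe and Gbp2 are the 3 red points, and the list medians lie between -0.12 and 0.26.

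The pattern of the summed members over the 5 libraries was closest, among 3997 other genes with at least 50 normalized CPM, to those of Pag1, Hpgds, Tmem50a and Man2b1. Their root mean square differences from the sum, in library-centred log2 normalized CPM, were between 0.0726 and 0.114. Pag1 was at 67.7 and 149 normalized CPM in WT and at 81.2, 112 and 94.4 in KIKO, lowest in WT replicate 1 and highest in WT replicate 2 like the sum. S100b made up between 39.2% and 61.2% of the sum, and over 5 libraries such likeness is a description of order and size only.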

How the data were processed

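Counts per gene of 2 WT and 3 KIKO libraries were analysed. Before deposit, reads were trimmed (Trimmomatic) and aligned to mm10 (HISAT2), and the authors deposited unnormalized counts from featureCounts; the annotation, the strand setting and the treatment of multimapping reads are not given in the sources used here. They also deposited log2 values scaled by DESeq2, which were not used, and 2 columns of per-sample values that match no sample label were left out. Symbols and coordinates came from GENCODE M21 (GRCm38, the build called mm10) and named 99.6% of the identifiers.

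With edgeR 4.0.16 in R 4.3.3, filterByExpr (minimum count 10, minimum total 15) kept 10889 genes, which held 98.6% to 98.9% of the counts of a library, 1013107 to 1351339 in all. Libraries were scaled by TMM (factors 0.971 to 1.06), and KIKO was set against WT in the two-sided quasi-likelihood test with Benjamini-Hochberg adjustment over these genes. Standard errors are the fold change over the root of F, and 95% intervals use the t distribution of the fit. P-values measure the spread between these libraries, which may be technical. The test was checked on simulated data in which all genes shared a common dispersion and the changed genes had larger folds than any member. This check does not cover smaller folds or a library that stands apart, as KIKO replicate 2 did. Levels were compared between genes per kilobase of exon.

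The members and gene lists were chosen with earlier results of these data known. Named were the 10 members, up to 4 genes past the thresholds and the 2 most abundant genes of each wider list, and the 5 genes closest in pattern; some genes that this rule names are not reported here. Alternatives were RLE factors, library size alone, 2 other filters, DESeq2 1.42.0, limma 3.58.1 with trend, the replicate block, an adjusted p as the threshold and leaving out each library. Where 1 WT library was left, its spread was taken from the KIKO libraries.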

Additional observations from a re-analysis of the deposited data

How the results depend on the processing

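Gfap was the 1 member past the thresholds with RLE factors, library size alone, all genes of at least 1 count, at least 10 counts in every library, DESeq2 and limma with trend, and its log2 fold change was between 0.89 and 1.90 over the 12 alternatives. With an adjusted p as the threshold, 0 members passed under any of these alternatives. With each library left out in turn, 0 to 1 members and 0 to 8 genes of the wider lists passed, in place of 1 and 2. With at least 10 counts in every library, 1 gene of the wider lists passed. The median log2 fold change of the members was between -0.19 and 0.67, and the ratio of their summed levels, KIKO over WT, between 0.727 and 1.52.

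With the replicate number as a block, 0 members and 0 genes of the wider lists passed the thresholds, the log2 fold change of Gfap was 1.37 (edgeR, unadjusted p = 0.0807), and 271 of all genes passed in place of 131. Only numbers 1 and 2 have libraries of both genotypes. After subtraction of the group means, r across genes was 0.180 for number 1 and 0.239 for number 2. It was 0.218 for WT replicate 1 and KIKO replicate 3. The deviations of a group sum to 0 in each gene, so these values depend on each other. They cannot decide whether the numbers are pairs. The labels name no pairing, and the main fit used none.

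Folds within the spread changed sign when 1 library was left out. Without WT replicate 1 the log2 fold changes were -0.34 for Slc1a2, -0.46 for Slc1a3 and -0.044 for Aldoc; without WT replicate 2 it was 0.48 for S100b; without KIKO replicate 2 it was -0.26 for Slc1a3; and without KIKO replicate 3 it was 0.013 for Hopx. Over the library left out, the ranges were -0.34 to 1.03 for Slc1a2, -0.46 to 0.86 for Slc1a3, -0.044 to 0.93 for Aldoc, -0.75 to 0.48 for S100b and -1.82 to 0.013 for Hopx. The cause was not tested. A fit without WT replicate 3 was not run, since that sample was not analysed here. Depth limits Aldh1l1 and Gdf10, with at most 4 and 7 counts a library.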
